A study of Mus musculus with 15 samples.

Results

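The comparison described here set dKO-LAP* cells of clone C1 against WTFL cells of the same clone, 3 RNA-seq libraries each, over every gene of the table except Cebpb. It asks which expression programmes still differed from the starting cells once the long C/EBPβ isoform LAP* had been put back alone. Of 53379 genes in the table, 21792 had a read in these 6 libraries and 12672 had enough reads to be tested (at least 10 normalized reads in at least 3 of 15 libraries). Of these, 4117 (32.5%) were called different between dKO-LAP* and WTFL cells at an adjusted p under 0.05 by limma. All cells were mouse fetal liver cells immortalized by a retrovirus carrying the MLL-ENL fusion oncogene and grown in IL-3. WTFL cells carried floxed Cebpa and Cebpb alleles without Cre exposure. The dKO cells had lost both genes after TAT-Cre and carried an empty GFP retrovirus, and the dKO-LAP* cells were dKO cells with the same vector carrying rat LAP*, with GFP-positive cells sorted for both. Each dKO line grew from 1 surviving colony, and the 3 libraries of a line came from RNA taken at different times. The p-values measure only the spread between such samples, pooled over the 15 libraries of the fit. Any difference between dKO-LAP* and WTFL cells therefore combines the knockouts, the outgrowth of that colony, the vector and sort, and LAP* itself, which cannot be told apart. WTFL and dKO libraries of clone C2, which came from another animal, and the dKO libraries of clone C1 are given beside the members for orientation. Cebpb was left out, because whether reads of the rat transgene were counted for the mouse gene was not tested.

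C/EBP proteins are basic leucine zipper transcription factors that direct myeloid differentiation. C/EBPα is needed to form granulocyte-monocyte progenitors and early granulocytes, C/EBPβ acts in macrophages and in emergency granulopoiesis, and C/EBPε drives the late granule genes of neutrophils and eosinophils. Cebpb has a single exon whose messenger gives a long activating form, LAP*, a somewhat shorter activating form, LAP, and a truncated form, LIP, which lacks most of the activation domain, so cells with LAP* alone have one of these forms in place of all of them.

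Cebpa was read first as a check of the labels. It lies on chromosome 7 from 35119293 to 35121928 of mm10 (GENCODE vM21), and had 1437, 964 and 903 normalized reads in the WTFL libraries against 0, 0.92 and 0 in the dKO-LAP* libraries. No dKO-LAP* library held more than the floor of 3 reads, so Cebpa was at least 361-fold lower (adjusted p = 1.4e-12, limma). The dKO-LAP* cells therefore held no Cebpa transcripts above that floor. Of the other family genes, Cebpe, the late-granule factor, had 380.0, 472 and 371 reads in WTFL and 2106, 1653 and 1669 in dKO-LAP* cells, a log2 difference of 2.15 ± 0.10 (SE, adjusted p = 3.3e-10, limma). Its dKO libraries had 2272, 2022 and 2027 reads, and the dKO-LAP* libraries overlapped them in range while lying above every WTFL library. Cebpd was higher by 0.61 ± 0.13, whereas Cebpg was not called (95% interval of the log2 difference 0.05 to 0.75, not adjusted for the number of genes). Cebpz was higher by 0.20 and Ddit3 lower by 0.69, but both calls were lost under other settings.

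The 6 libraries held 9212237 to 13613500 reads on genes (median 12184318). WTFL replicate 3 stood apart from its group, with a chi-square per degree of freedom of 28.7 and 39.5 against the other WTFL libraries where other pairs of clone C1 gave 7.97 to 15.5. List counts that leaving it out moved by over 1.5 times are given without it as well. Among the markers that check the labelled myeloid cells, Ptprc, Itgam, Fcgr3, Spi1, Kit, Mpo and Lyz2 all had reads in every library. Of the defining markers of other cell types, Cd4, Ncr1, Alb, Hba-a1, Col3a1 and Cdh5 were at 0 in all 6 libraries. Of the 5 B cell markers only Cd79b, a part of the B cell receptor, was measurable. It had 99, 87.5 and 116 reads in WTFL and 2.03, 2.77 and 0.91 in dKO-LAP* cells, and the list summed to 89.3 to 117 against 0.91 to 3.05 reads. Of the 5 hepatocyte markers only Afp was measurable, with 36.1, 27.1 and 32.6 against 9.14, 4.61 and 5.47 reads. None of 7 T and NK cell markers and none of 5 erythroid markers reached the level needed for a test, and of 5 markers of stroma and endothelium Pecam1 and Pdgfrb did, the list summing to 312 to 583 reads in WTFL and 201 to 238 in dKO-LAP* cells, with Pecam1 lower (-1.51) and Pdgfrb higher (2.51). What part such cells have in the results was not tested.

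Of the 12672 genes tested, 1795 were higher (14.2% of those tested) and 2322 lower (18.3%) in dKO-LAP* than in WTFL cells. Values are log2 differences with their SE (3 libraries per group) where no other unit is named. The SE uses a spread shared by all 5 groups, so it can understate the spread of the WTFL libraries. With only the 2 groups compared in the fit, 3133 genes were called. The median log2 difference over all tested genes was -0.0035. Quantile normalization, in place of the size factors, gave 2520 higher and 1910 lower, so the share of calls that were higher moved from 43.6% to 56.9%. A log2 difference of at least 1 was reached by 5.11% of tested genes among those higher and by 7.55% among those lower. A log2 difference of at least 3 in either direction was found for 433 called genes, 157 higher and 276 lower. In 181 of the genes called lower no dKO-LAP* library held more than 3 reads, and in 153 of those called higher no WTFL library did. Against the same threshold, 4.45% of tested genes differed between dKO-LAP* and dKO cells and 37.0% between dKO and WTFL cells of clone C1 (17.1% higher, 19.8% lower). These contrasts share libraries with the one described here, so their values are only set side by side.

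**Figure D1:**
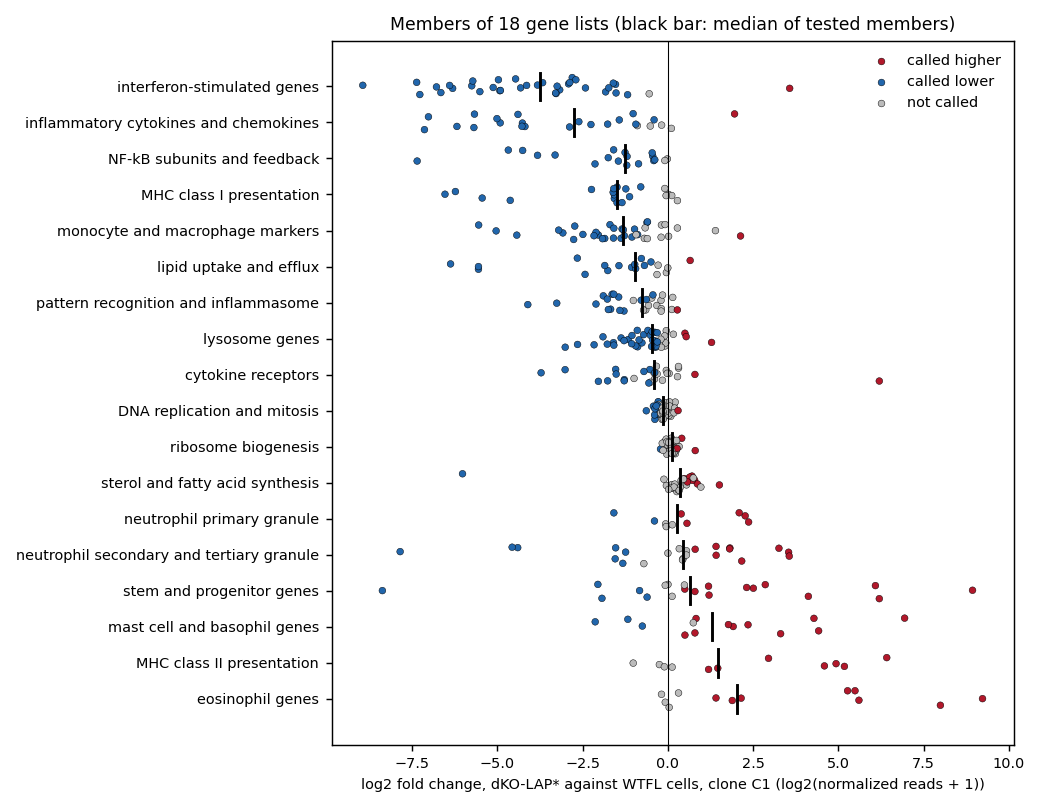
Each point is a tested member of a gene list, placed on the horizontal axis by its log2 fold change of dKO-LAP* against WTFL cells of clone C1, red if called higher, blue if called lower and grey if not called, with a black bar at the list's median. Interferon-stimulated genes (median -3.75) and inflammatory cytokines (median -2.75) have the lowest medians of the 18 lists plotted and eosinophil genes (median 2.02) the highest.

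Monocyte and macrophage genes formed a broad group that lay below the WTFL level with LAP*. Of 36 markers tested, 25 were lower and 1 higher, with a median log2 difference of -1.32. In bulk RNA, fewer cells of a type and less RNA per cell cannot be told apart. Csf1r, the receptor for the macrophage growth factor M-CSF, had 3171, 3646 and 2893 reads in WTFL, 696, 945 and 1120 in dKO and 661, 788 and 925 in dKO-LAP* libraries. The dKO-LAP* libraries all lay below the WTFL libraries and within or just under the dKO range, a log2 difference from WTFL of -2.04 ± 0.22 (adjusted p = 3.5e-06, limma). Gpnmb, a glycoprotein of lipid-laden macrophages, had 1223, 1513 and 1108 reads in WTFL against 34.5, 25.8 and 20.1 in dKO-LAP* cells (-5.55 ± 0.50). Vcan, which encodes a proteoglycan of monocytes, had 759, 1331 and 270.0 against 23.4, 33.2 and 31.9 reads (-4.43 ± 0.43). The efferocytosis receptor Mertk was at the floor in every dKO-LAP* library and at least 25.9-fold lower. Also lower were Cd14 (-2.11), the mannose receptor Mrc1 (-3.08), Fcgr1 (-2.76), Lyz2 (-1.92) and Cd68 (-1.05). Tgfbi, an adhesion protein, was the 1 marker called higher (2.13). Itgam, the CD11b chain, and Sirpa were not called, with intervals of -0.15 to 0.71 and -0.17 to 0.21 and overlapping groups. The level of this list also differed between the WTFL lines. Its mean log2 level was 9.08 to 9.55 in WTFL and 7.58 to 7.95 in dKO-LAP* libraries of clone C1, but 6.00 to 6.70 in WTFL libraries of clone C2. In clone C2, with a background of 20.1% lower and 17.4% higher, 14 of the 36 were lower and 4 higher in dKO than in WTFL cells. A property of the WTFL line and an effect of genotype cannot be told apart here.

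The transcription factors of the monocyte branch divided. Maf, a macrophage factor, had 264, 301 and 83.5 reads in WTFL cells and was at the floor of 3 reads in dKO-LAP* cells, at least 70.9-fold lower. Klf4, which promotes monocyte fate, had 74.9, 122 and 175 against 11.2, 23 and 21.9 reads (-2.65 ± 0.44), and Irf8, another monocyte determinant, 999, 849.6 and 806 against 299, 367 and 451 (-1.26 ± 0.18). Spi1, which encodes PU.1, was not called, with an interval of -0.38 to -0.03. Over the list of myeloid transcription factors, 9 of 27 tested were lower and 6 higher. Gata2 (4.28), Ikzf2 (at least 8.84-fold higher) and Id2 (1.24) had the largest differences among those higher, and the call of Id2 was lost when any of 4 libraries was left out.

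Lipid handling and lysosome genes, which macrophages use to take up and break down material, were low as well. Of 19 tested genes of lipid uptake and efflux, 14 were lower and 1 higher (median -0.97). Pparg, the nuclear receptor that governs lipid uptake in macrophages, had 1147, 1356 and 1339 reads in WTFL, 27.2, 38.8 and 47.7 in dKO and 22.4, 30.4 and 26.4 in dKO-LAP* cells, a difference from WTFL of -5.55 ± 0.20 (adjusted p = 1.6e-11, limma). Lpl, the lipase of circulating triglyceride, had 2003, 3503 and 1497 against 26.4, 51.6 and 11.9 reads (-6.37 ± 0.45), and the cholesterol exporter Abca1 140.5, 307 and 82.5 against 31.5, 29.5 and 13.7 (-2.66 ± 0.47). In each the groups did not overlap. Apoe was the member called higher (0.65), a call lost with edgeR, DESeq2 and other settings. Of 41 lysosome genes, 31 were lower and 3 higher (median -0.48), most of them by modest amounts. Psap, the precursor of the saposins, had 19515, 24621 and 21603 reads in WTFL and 4602, 4465 and 5617 in dKO-LAP* libraries (-2.16 ± 0.12), and the protease Ctsb had 10038, 10593 and 9869 against 3529, 3248 and 3317 (-1.60 ± 0.06). In clone C2, where no library is shared, 26 of the 41 were lower and 5 higher in dKO than in WTFL cells.

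Genes of NF-κB signalling and its cytokine targets were low nearly throughout. NF-κB factors are held in the cytoplasm by inhibitors until an inflammatory signal frees them, and they then induce their own inhibitors together with cytokines. Of 19 subunit and feedback genes tested, 17 were lower and none was higher (median -1.26). Tnip3, a feedback inhibitor, had 344, 414 and 343 reads in WTFL cells and was at the floor in dKO-LAP* cells, at least 120.5-fold lower. Nfkbiz, a nuclear regulator of secondary response genes, had 561, 684 and 281 reads in WTFL, 36.2, 37.8 and 30.0 in dKO and 20.3, 18.4 and 14.6 in dKO-LAP* cells (-4.68 ± 0.30, adjusted p = 9.5e-09, limma). The subunit Relb had 246, 299 and 263 against 12.2, 24 and 20.1 reads (-3.82 ± 0.30), whereas Nfkb1 (-0.86) and Rela (-0.41) differed less. Cyld and Ikbkb were the members not called. The mean log2 level of the list was 9.03 to 9.48 in WTFL and 7.24 to 7.37 in dKO-LAP* libraries of clone C1 and 7.38 to 7.72 in WTFL libraries of clone C2, where 10 of the 19 were lower and 2 higher in dKO cells. Line and genotype cannot be told apart for this list either.

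Of 24 tested inflammatory cytokines and chemokines, 19 were lower and 1 higher (median -2.75, or -2.64 when floor genes count at their bound). Il1b had 278, 779 and 215 reads in WTFL, 7.93, 6.29 and 14.1 in dKO and 11.2, 9.22 and 12.8 in dKO-LAP* libraries (-4.92 ± 0.52, adjusted p = 2.3e-06, limma). Tnf had 446, 513 and 356 against 52.8, 77.4 and 47.4 reads (-2.88 ± 0.25), with no overlap of the groups. The chemokines Ccl2 and Cxcl2 and the cytokine Il1a were at the floor in dKO-LAP* cells, at least 63.1-fold, 65.9-fold and 83.7-fold lower. Spp1, which encodes osteopontin, was the member called higher, with 499, 1256 and 194 reads in WTFL and 1972, 2066 and 1745 in dKO-LAP* cells (1.95 ± 0.52), a call lost when only these groups were fitted. Receptors that sense microbes showed the same direction in fewer members, with 15 of 28 tested lower and 1 higher (none without WTFL replicate 2 or dKO-LAP* replicate 3), the lower ones including Tlr8 (-4.11), Tlr2 (-1.63) and Clec4e (-1.41). The mean level of these receptors in WTFL libraries of clone C2 (7.17 to 7.47) lay below that in dKO-LAP* libraries (7.54 to 7.70). For the cytokine and chemokine list it lay above, at 5.23 to 5.90 against 4.03 to 4.55. Among cytokine receptors 12 of 27 were lower and 2 higher, led by Il6st, the gp130 chain (-3.72). Csf2rb, the shared chain of the IL-3 receptor through which these cultures are kept growing, was not called (interval -0.17 to 0.24).

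**Figure D2:**
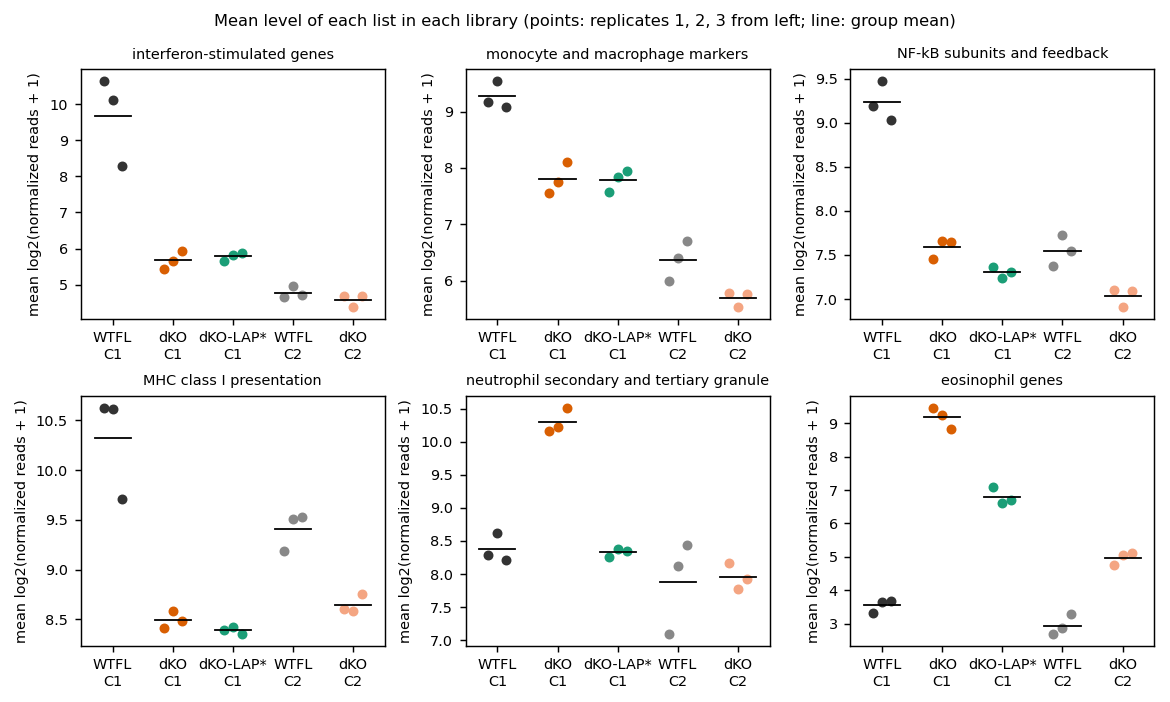
Each panel gives the mean log2(normalized reads + 1) of the tested members of a list, on the vertical axis, in every library of the 5 groups (points, replicates 1 to 3 from the left) with the group mean as a line. In the interferon panel the WTFL libraries of clone C1 lie at 10.65, 10.11 and 8.28, above all libraries of the other groups, and in the eosinophil panel the dKO-LAP* libraries (6.62 to 7.08) lie between WTFL (3.30 to 3.69) and dKO (8.84 to 9.47) of clone C1.

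Interferon-stimulated genes had the largest median difference of the programmes examined. These antiviral genes are switched on through a response element in their promoters after interferon signalling. Of 36 tested, 34 were lower in dKO-LAP* cells, Ifitm1 was higher and Irf1 was not called, and the median log2 difference was -3.75. Isg15, a ubiquitin-like modifier, had 2038, 1081 and 171 reads in WTFL, 7.93, 7.34 and 4.41 in dKO and 3.05, 2.77 and 4.56 in dKO-LAP* libraries (-7.36 ± 0.61, adjusted p = 1.6e-07, limma). The antiviral RNA-binding gene Ifit1 had 1900, 799 and 172 against 4.06, 2.77 and 2.74 reads (-7.27 ± 0.67), and Irf7, the factor that amplifies the response, 3991, 2627 and 432 against 33.5, 36 and 36.5 (-5.51 ± 0.55). In each, WTFL replicate 3 was lowest of its group and still above every dKO-LAP* library. Without it, 35 of 36 genes were called lower and the median was -4.36, and without WTFL replicate 1, the highest, 33 were called and the median was -3.30. For Isg15, Ifit1 and Irf7 the SE, pooled over all groups, is smaller than the compared libraries alone would give. With only the 2 groups compared in the fit, 31 of the 36 were called lower. Ifitm1, a membrane protein, went the other way, with 744, 1419.6 and 545 reads in WTFL and 11101, 9384 and 9279.9 in dKO-LAP* cells (3.57 ± 0.23).

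The level of this list also differed between WTFL lines. Its mean log2 level was 10.65, 10.11 and 8.28 in the WTFL libraries of clone C1 and 4.66 to 4.97 in those of clone C2, while dKO-LAP* libraries had 5.66 to 5.88. In clone C2, 4 of the 36 genes were lower and 3 higher in dKO than in WTFL cells. Isg15 had 8.96, 15.7 and 9.16 reads in WTFL and 8.37, 7.78 and 10.7 in dKO cells there. Here too, line and genotype cannot be told apart.

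The promoters of 3 of these genes are shown because they carry the letters to which the interferon-activated factors are known to bind. The stretches are 80 bases long and begin 107, 130 and 155 bases before the RefSeq start, in that order (GRCm38.p6), 5′ to 3′ on the gene's strand, with matches to a pair of GAAA runs spaced by any 2 bases, or of TTTC runs on the other strand, in capitals. In Isg15 the 3 matches overlap.
Isg15 (chr4:156200846-156200925, minus strand): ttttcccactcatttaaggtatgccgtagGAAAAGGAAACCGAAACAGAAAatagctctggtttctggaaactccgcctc
Ifit1 (chr19:34640759-34640838, plus strand): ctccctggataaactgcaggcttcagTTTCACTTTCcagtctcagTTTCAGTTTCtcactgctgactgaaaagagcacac
Rsad2 (chr12:26456528-26456607, minus strand): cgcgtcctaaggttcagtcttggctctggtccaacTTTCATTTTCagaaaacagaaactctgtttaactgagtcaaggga
Within 250 bases before the start, 13 of the 28 list genes with a promoter in the table held such a match, against 3.46% of the 27025 genes of the table. Rsad2, the antiviral enzyme viperin, had 2040.5, 928 and 147 reads in WTFL and 3.05, 4.61 and 8.21 in dKO-LAP* cells (-6.78 ± 0.76). A match is a description of the sequence and does not show that a factor was bound.

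MHC class I presentation, which displays peptides from inside the cell, was low in the same cells. Of 20 tested genes, 15 were lower and none higher (median -1.49). B2m, the light chain of every class I molecule, had 22335, 21022 and 13088 reads in WTFL, 4619.6, 3840 and 4087 in dKO and 3563, 3963 and 4127 in dKO-LAP* libraries (-2.24 ± 0.16, adjusted p = 2.6e-08, limma), with all dKO-LAP* libraries below WTFL. Nlrc5, the activator of class I genes, had 545, 410.4 and 123 against 2.03, 3.69 and 3.65 reads (-6.23 ± 0.57), and the peptide pump gene Tap1 1499.9, 1339 and 423 against 304, 304 and 325 (-1.61 ± 0.32). H2-Q4 was at the floor and at least 62.5-fold lower. Reads of near-identical family members, such as the H2-Q, Ear, Oas and Bcl2a1 genes, could have been split between copies, so single values there are uncertain. Canx and Calr, chaperones with wider roles, were not called (intervals -0.29 to 0.18 and 0.05 to 0.51). In clone C2 4 of the 20 were lower and 4 higher, near the background of 20.1% and 17.4%.

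**Figure D3:**
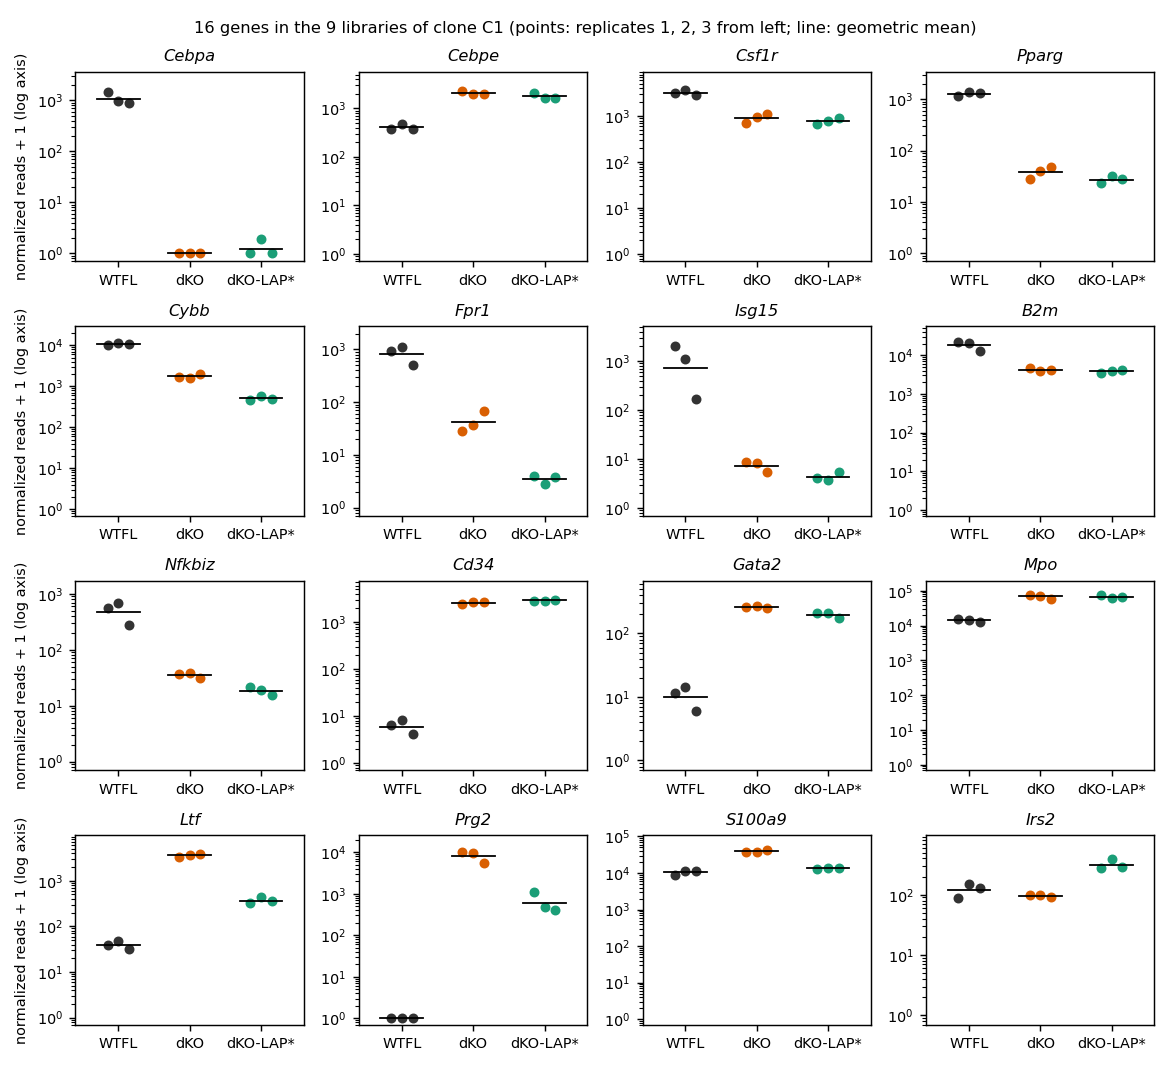
Normalized reads plus 1 (vertical log axis) of 16 genes in the 9 libraries of clone C1, with replicates 1 to 3 from the left in each group and a line at the geometric mean. For Csf1r, Pparg, Isg15, B2m and Nfkbiz the dKO-LAP* libraries sit at or under the dKO libraries and below WTFL, for Cd34, Gata2 and Mpo near dKO and above WTFL, for Ltf and Prg2 between them, and for Cybb and Fpr1 below both.

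Genes of stem and progenitor cells lay mostly above the WTFL level. Of 20 tested, 11 were higher and 5 lower (median 0.64, or 0.58 when floor genes count at their bound). Cd34, a surface sialomucin of blood progenitors, had 5.35, 7.22 and 3.06 reads in WTFL, 2393, 2745 and 2729.8 in dKO and 2861, 2837 and 3024 in dKO-LAP* libraries, a difference from WTFL of 8.93 ± 0.30 (adjusted p = 7.0e-12, limma). Every dKO-LAP* library exceeded every dKO library slightly, and that difference was not called (log2 0.15, adjusted p = 0.852, limma). Flt3, a progenitor receptor kinase, was at the floor in WTFL cells and had 57.9, 61.8 and 106 reads in dKO-LAP* cells, at least 18.7-fold higher. Hmga2, a chromatin protein of fetal progenitors, was likewise at least 17-fold higher, and Sox4 had 61.5, 50.5 and 56 against 302, 303 and 364 reads, 5.68-fold higher. Kit (0.79) and Myb (0.50) differed less. Bcl11a, a lymphoid and progenitor factor, went the other way, with 427, 435 and 372 reads in WTFL cells and a level at the floor in dKO-LAP* cells, at least 135-fold lower. In clone C2, Bcl11a had 0, 1.05 and 0 reads already in WTFL cells.

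Genes bound up with the MLL fusion itself differed in both directions. Of 30 tested Hoxa genes and MLL fusion targets, 15 were lower and 9 higher. Hoxa9 had 2372, 2518 and 1938 reads in WTFL and 1076, 1899.8 and 1079.7 in dKO-LAP* cells (-0.80 ± 0.18), and Hoxa10 646, 579 and 535 against 219, 253 and 209 (-1.37 ± 0.11). Meis1, the cofactor of Hoxa9, and Myc were not called, with intervals of -0.16 to 0.16 and -0.28 to 0.24. Bahcc1, an MLL fusion target, had 9.37, 7.22 and 6.11 reads in WTFL, 754, 931 and 779 in dKO and 538, 486 and 442 in dKO-LAP* cells (5.85 ± 0.38). Of 14 tested genes that the study named as repressed by HOXA9, 12 were higher and none lower. The study picked that list on these samples, so its direction is not independent evidence.

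Mast cell and basophil genes were also mostly above WTFL, with 10 of 14 tested higher and 3 lower (median 1.30, or 0.73 with a pseudocount of 5). Gata2, the factor of mast cell and stem cell programmes, had 10.7, 13.5 and 5.09 reads in WTFL, 259, 269.6 and 252 in dKO and 207, 207 and 174 in dKO-LAP* cells (4.28 ± 0.24, adjusted p = 2.2e-09, limma). Hdc, the histamine-forming enzyme, had 38.8, 34.3 and 30.6 against 796, 600.1 and 903 reads (4.42 ± 0.33), with no overlap of the groups. The values of the 3 lower members are not shown. The list held 22 genes. The mast cell proteases Cma1, Mcpt4, Tpsb2 and Tpsab1, the IgE receptor chain Fcer1a, and Cd200r3, Slc18a2 and Prss34 had too few reads to be tested.

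MHC class II genes, which in myeloid cells mark antigen-presenting types, were higher in 7 of 11 tested members and lower in none, or in 1 without WTFL replicate 3 (median 1.46). Members without reads in WTFL cells, such as H2-Aa and Ciita, could not be called lower. H2-Aa was at 0 in the WTFL libraries and had 116, 159 and 215 reads in dKO and 78.2, 86.7 and 88.5 in dKO-LAP* cells, at least 21-fold higher than WTFL. Ciita, the activator of the class, was at 0 in WTFL and had 23.4, 22.1 and 23.7 reads in dKO-LAP* cells, at least 5.75-fold higher. Cd74, the invariant chain, had 36.1, 96.5 and 51 against 332, 474 and 547 reads (2.95 ± 0.41). In clone C2, H2-Aa had 1, 0 and 3.66 reads in WTFL and 1.05, 0 and 0 in dKO cells, and was not called.

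Neutrophil granule genes are made in waves, the primary granule proteins in promyelocytes and the secondary and tertiary ones later under C/EBPε. Of 10 tested primary granule genes, 5 were higher and 2 lower. Mpo, myeloperoxidase, had 15671, 14158 and 12694 reads in WTFL, 77194, 72755 and 59156 in dKO and 74549, 61315 and 68504 in dKO-LAP* libraries (2.27 ± 0.25, adjusted p = 3.4e-06, limma), with the dKO and dKO-LAP* ranges overlapping and both above WTFL. Prss57, a serine protease of the same granules, had 387, 324 and 371 against 1724, 1317 and 1587 reads (2.09 ± 0.13), and neutrophil elastase, Elane, differed by 0.56 ± 0.11, or by 0.27 and no longer called with quantile normalization. Ctsg was not called (interval -0.40 to 0.27).

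The secondary and tertiary granule list held genes above, at and below the WTFL level. Of 23 tested, 9 were higher and 7 lower than in WTFL cells, and against dKO cells 19 were lower (background 3.03%) and none higher (background 1.42%). Ltf, lactoferrin, had 37.5, 46 and 30.6 reads in WTFL, 3292, 3655 and 3941 in dKO and 319, 437 and 353 in dKO-LAP* libraries, a log2 difference of 3.25 ± 0.31 from WTFL (adjusted p = 8.3e-07, limma) and of -3.30 from dKO. Camp, the cathelicidin, had 549.9, 560.1 and 775 reads in WTFL, 8281, 7001 and 7729 in dKO and 2323, 2029 and 2222 in dKO-LAP* cells (1.82 ± 0.23 from WTFL). Ngp, neutrophilic granule protein, stayed above WTFL by 1.41 ± 0.24. In these 3 genes the dKO-LAP* libraries lay between the others without overlap.

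Other members were not called against WTFL by limma. S100a9, a calprotectin subunit, had 8994, 11533 and 11438 reads in WTFL, 37964, 37756 and 42955 in dKO and 12670.2, 13583 and 13789 in dKO-LAP* cells, with an interval against WTFL of -0.09 to 0.76. Its partner S100a8 had an interval of 0.11 to 0.98, and DESeq2 and edgeR called both higher. The collagenase Mmp8 (-0.48 to 1.36) and the gelatinase Mmp9 (-0.58 to 1.44) were not called, and these intervals leave room for a difference of 1 on the log2 scale. Retnlg was at 0 in every WTFL and dKO-LAP* library and had 7.93, 16.8 and 26.5 reads in dKO cells.

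A further set lay below WTFL cells and below dKO cells as well. Fpr1, a receptor for bacterial formyl peptides, had 939, 1097 and 509 reads in WTFL, 27.2, 36.7 and 68 in dKO and 3.05, 1.84 and 2.74 in dKO-LAP* libraries, at least 278-fold lower than WTFL (adjusted p = 2.3e-08, limma). It was also called lower than in dKO cells (adjusted p = 0.00125, limma). Its relative Fpr2 had 1187, 1466 and 1248 reads in WTFL, 352, 396 and 532 in dKO and 42.7, 51.6 and 70.2 in dKO-LAP* cells (-4.57 ± 0.47 from WTFL). Cybb, the catalytic subunit of the phagocyte oxidase, had 10198, 11542 and 10618 reads in WTFL, 1687, 1621 and 1995 in dKO and 466, 581 and 485 in dKO-LAP* cells (-4.40 ± 0.26 from WTFL). The groups did not overlap in any of the 3 genes.

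In other members the dKO and WTFL cells were not called apart while the dKO-LAP* cells were lower than both. Csf3r, the G-CSF receptor, had 934, 991 and 1049 reads in WTFL, 869, 953 and 942 in dKO and 318, 359.5 and 349 in dKO-LAP* cells (-1.53 ± 0.13 against WTFL, adjusted p = 2.7e-07, limma). Lcn2, the iron-scavenging lipocalin of secondary granules, had 5709, 8588 and 4286 reads in WTFL, 6109, 6517 and 7352 in dKO and 2059, 2034 and 2014 in dKO-LAP* cells (-1.55 ± 0.28). Between dKO and WTFL cells the log2 difference was -0.11, adjusted p = 0.576, limma, for Csf3r and 0.16, adjusted p = 0.696, limma, for Lcn2. The lysosomal protease Ctsh followed the same order, with 183, 239.9 and 231 reads in WTFL, 211, 163 and 146 in dKO and 35.5, 29.5 and 36.5 in dKO-LAP* cells (-2.65 ± 0.20), as did the adhesion molecule Pecam1 (-1.51 ± 0.20).

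**Figure D4:**
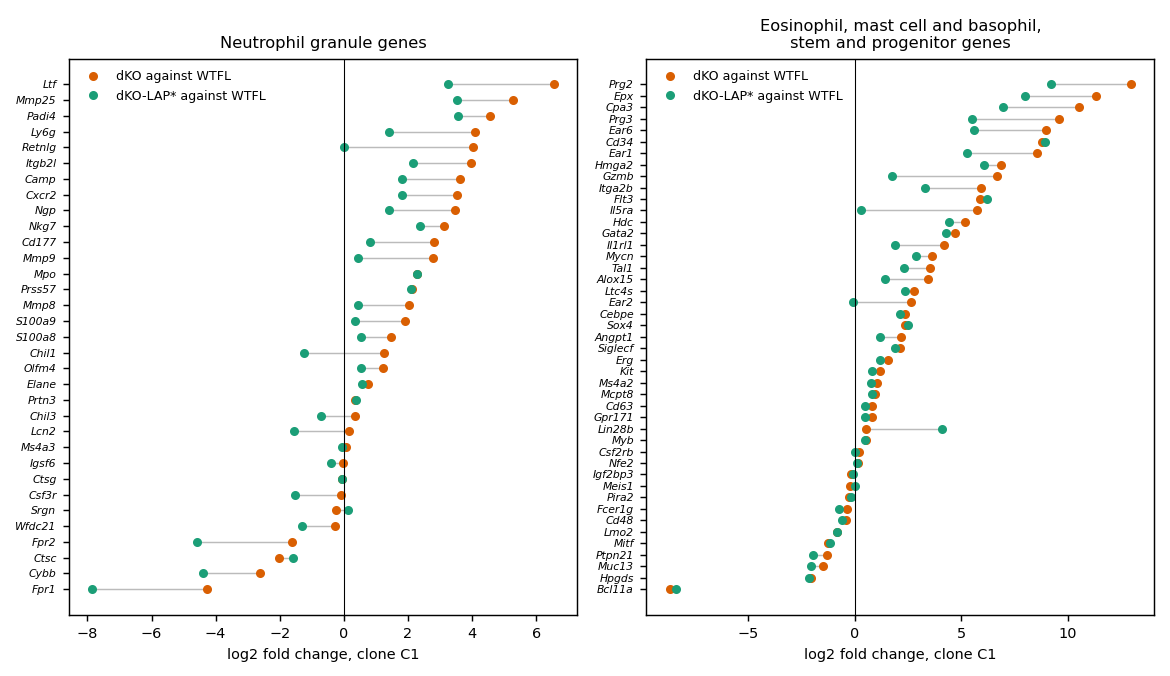
Log2 fold change against WTFL of clone C1 (horizontal axis) for the dKO cells (orange) and the dKO-LAP* cells (green), joined by a line for each tested gene of the neutrophil granule lists (left) and of the eosinophil, mast cell and progenitor lists (right). Ltf, Camp and Prg2 lie nearer to 0 with LAP* than without, the points of Cd34, Mpo and Sox4 nearly coincide, and Fpr1, Cybb and Csf3r lie further from 0. Both contrasts share the WTFL libraries.

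Promoters of 5 genes are shown for the letters TTGCNNAA or the reverse complement TTNNGCAA, part of the site that C/EBP dimers are known to bind, in capitals. Ltf and Ngp stand for genes above WTFL with LAP*, Lcn2 for one below both other groups, and Saa3 and Cp for genes among the 10 largest falls below WTFL. Each stretch is 80 bases long and begins 111, 174, 250, 135 and 106 bases before the RefSeq start, in that order (GRCm38.p6), 5′ to 3′ on the gene's strand.
Ltf (chr9:111019181-111019260, plus strand): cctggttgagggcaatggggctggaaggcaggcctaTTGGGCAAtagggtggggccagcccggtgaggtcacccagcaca
Ngp (chr9:110419634-110419713, plus strand): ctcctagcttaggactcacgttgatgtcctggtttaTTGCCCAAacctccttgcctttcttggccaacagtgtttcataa
Lcn2 (chr2:32387910-32387989, minus strand): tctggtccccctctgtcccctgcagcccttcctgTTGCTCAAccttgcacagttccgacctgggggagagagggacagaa
Saa3 (chr7:46715732-46715811, minus strand): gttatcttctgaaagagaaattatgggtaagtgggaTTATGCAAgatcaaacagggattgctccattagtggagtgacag
Cp (chr3:19957143-19957222, plus strand): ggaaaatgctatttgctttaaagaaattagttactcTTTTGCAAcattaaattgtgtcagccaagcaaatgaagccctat
Of the 21 secondary and tertiary granule genes with a promoter in the table, 7 held such a match within 250 bases before the start, against 10.8% of all 27025 genes. Only promoters with a match are printed, so the 5 do not show how often the motif occurs in genes above or below WTFL.

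Eosinophil genes were above WTFL in 8 of 12 tested members and below in none (median 2.02), and 8 were lower than in dKO cells (background 3.03%). Prg2, the major basic protein of eosinophil granules, and Epx, eosinophil peroxidase, were at 0 in all WTFL libraries. Members at 0 in WTFL cells were tested because of their reads in other groups, and could not be called lower. In dKO-LAP* cells Epx had 425, 206 and 185 reads against 3554, 2904 and 1609 in dKO cells, at least 67.7-fold above WTFL and with a log2 difference of -3.33, adjusted p = 5.2e-04, limma, from dKO. Prg2 was at least 164-fold above WTFL. The ribonuclease Ear6 had 0, 0 and 2.04 reads in WTFL, 1099.7, 793 and 456 in dKO and 90.4, 68.2 and 53.8 in dKO-LAP* cells. Siglecf, an eosinophil lectin, had 107, 122 and 98.8 in WTFL, 465, 488 and 500.4 in dKO and 408, 431 and 378 in dKO-LAP* cells (1.89 ± 0.20), and was not called against dKO (log2 -0.26, adjusted p = 0.565, limma). The IL-5 receptor chain Il5ra was at 0 in WTFL, at 68, 49.3 and 44.1 reads in dKO and at 0, 0 and 0.91 in dKO-LAP* cells, and was not called against WTFL. Cpa3, a mast cell carboxypeptidase, was at 0 in WTFL, at 1546, 1522 and 1297 in dKO and at 144, 109 and 115 in dKO-LAP* cells, at least 30.6-fold above WTFL.

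Some genes stood above both WTFL and dKO cells, and how many did was not counted. Lin28b, an RNA-binding protein of fetal blood progenitors, had 13.4, 8.12 and 9.17 reads in WTFL, 10.2, 14.7 and 22.1 in dKO and 156, 218 and 202 in dKO-LAP* libraries (4.12 ± 0.26 against WTFL, adjusted p = 6.9e-09, limma). Its log2 difference from dKO was 3.58, adjusted p = 8.3e-07, limma, and dKO and WTFL were not called apart (0.53, adjusted p = 0.119, limma). Irs2, an adaptor of insulin and IGF receptors, had 87, 149 and 127 reads in WTFL, 97.4, 99.7 and 89.1 in dKO and 271, 384 and 285 in dKO-LAP* cells (1.38 ± 0.23 from WTFL). The dKO-LAP* libraries lay above all others for both genes. Igf2r, which clears IGF2, had 4.01, 3.61 and 3.06 reads in WTFL, 13.6, 12.6 and 8.83 in dKO and 33.5, 38.7 and 35.6 in dKO-LAP* cells (3.02 ± 0.38). Within the IGF axis, 4 of 9 tested genes were higher and 1 lower than in WTFL cells, and without WTFL replicate 3 the lower calls were 3. The 1 lower was Igf1 itself, with 20.1, 27.1 and 22.4 reads in WTFL, 1.13, 1.05 and 0 in dKO and 5.08, 2.77 and 2.74 in dKO-LAP* cells (-2.45 ± 0.50), a call lost with a pseudocount of 0.1. Igfbp4, an IGF-binding protein, had 1805, 1872 and 2543 in WTFL against 10078, 9427 and 10853 reads in dKO-LAP* cells (2.30 ± 0.17), and is not placed above dKO cells here. The summed reads of the IGF axis were 7573 to 8053 in WTFL, 14696 to 15516 in dKO and 15257 to 16101 in dKO-LAP* libraries. Csn2, the milk protein beta-casein, was chosen after its values were seen. It had 5.35, 6.31 and 5.09 reads in WTFL, 0 in dKO and 197, 242 and 209.8 in dKO-LAP* cells (5.04 ± 0.33).

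The single largest differences were ranked among genes whose groups did not overlap and with a mean of at least 100 reads in the higher group. Beside Cebpa, the deepest falls below WTFL were those of Cp, the copper ferroxidase ceruloplasmin, with 1226, 1186 and 933 reads in WTFL cells and at least 366-fold lower, and of Rtp4, an interferon-stimulated gene, at least 284-fold lower. Acod1, the itaconate-forming enzyme of activated macrophages, was at least 161-fold lower, and the acute phase gene Saa3 had 1180.1, 1485 and 1103 against 2.03, 3.69 and 2.74 reads. The lysyl oxidase Lox and the procollagen protease Adamts2 were at 0 in every dKO-LAP* library, at least 114-fold and 86.8-fold lower. Lgals3bp, a secreted glycoprotein, had 8970, 7322 and 3084 against 24.4, 22.1 and 26.4 reads (-7.86 ± 0.38).

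The largest rises, beside Prg2, Epx, Cpa3 and Cd34, were in 6 further genes. Tdrd5, a germline RNA-silencing gene, was at 0 in WTFL, at 68, 60.8 and 68 in dKO and at 206, 192 and 189.7 in dKO-LAP* cells, at least 48.8-fold above WTFL and called against dKO (log2 1.56, adjusted p = 5.0e-04, limma). Ablim1, an actin-binding protein, and Scn3a, a sodium channel subunit, were at 0 in WTFL cells and at least 42.1-fold and 39.6-fold higher. Nt5e, the ecto-nucleotidase CD73, had 1.34, 15.3 and 5.09 against 407, 400.1 and 406 reads (6.04 ± 0.45). The cytochrome P450 gene Cyp2a5 and the uncharacterized 4933440M02Rik were at least 28.6-fold and 29.2-fold higher. Some of these genes already differed between the WTFL lines, since clone C2 had 1534, 2515 and 2058 reads of Nt5e and 437, 214 and 279 of Cyp2a5.

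Genes of growth were closer to the WTFL level. Of 42 DNA replication and mitosis genes, 11 were lower and 1 higher, with the largest difference among the calls at -0.63, for the thymidine kinase Tk1, and quantile normalization gave 5 lower and 3 higher. Of 39 ribosome biogenesis genes, 1 was lower and 3 higher, or none and 13 under quantile normalization and none and 8 without WTFL replicate 3. Glycolysis genes gave 2 lower and 3 higher of 23, led by the glucose transporter Slc2a3 (2.79). WTFL replicate 3 had the highest mean replication level (11.16 against 10.87 and 10.93 on the log2 scale) and the lowest glycolysis level (11.40 against 12.08 and 12.26). Without it replication gave 6 lower and 2 higher (7 and 1 without dKO-LAP* replicate 1). Glycolysis gave 8 lower without it, and 1 without WTFL replicates 1 or 2 or dKO-LAP* replicates 2 or 3. Sterol and fatty acid synthesis genes were higher in 8 of 27 and lower in 1, but without WTFL replicate 3 in 4 and 2 and without dKO-LAP* replicates 1 or 2 in 3 or 2 and 1.

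Clone C2 shares no library with this comparison, so its knockout contrast, in which 37.6% of tested genes were called, was set beside it. Of the 1795 genes higher in dKO-LAP* than in WTFL cells of clone C1, 587 were also called higher in dKO than in WTFL cells of clone C2, which is 32.7% of the former list and 26.6% of the latter, beside 17.4% of all tested genes called higher there. For the lower genes 1019 were shared, 43.9% of the 2322 and 40.0% of the 2548 called in clone C2, beside 20.1% of all tested genes called lower there. The opposite call was found for 225 (12.5%) and 236 (10.2%) genes of the lists of clone C1. Cd34 was higher in dKO cells of clone C2 as well (5935, 6184 and 6975 against 0, 2.1 and 0.92 reads), as were Mpo and Gata2, and Lpl was lower (1.05, 0 and 0 against 493, 458 and 691). Csf1r, with 35.9, 36.7 and 65 reads in WTFL cells of clone C2, and B2m were not called there (log2 0.43, adjusted p = 0.146, limma, for Csf1r). No dKO-LAP* library of clone C2 was analysed here, so whether LAP* leaves the same programmes in that clone was not tested.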

How the data were processed

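RNA-seq of WTFL, dKO and dKO-LAP* cells was analysed from 1 table of 53379 genes. The authors aligned paired reads of stranded libraries to mm10 with STAR 2.5.3a, counted them with HTSeq 0.10.0 and divided by a DESeq2 1.26.0 size factor, so the deposited values are a signal of normalized read counts. The annotation and strand setting of the counting are not given in the sources used here, so overlapping and antisense genes are uncertain. Of the value columns, 15 matched labelled samples, and 3, named for dKO-LAP* cells of clone C2, did not and were left out. In the 9 libraries of clone C1, 100% of values were whole reads within 0.1 after dividing by the size factor found from the lowest values. Reads outside genes made up 22.4% to 26.2% of each compared library and were left out.

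Genes reaching 10 normalized reads in 3 or more libraries were tested by limma 3.58.1 (R 4.3.3) on log2(normalized reads + 1), which understates the change of low genes, with all 5 groups in 1 fit and Benjamini-Hochberg adjustment. A gene was called at an adjusted p under 0.05. Where a group held at most 3 reads in each library, a bound against 3 reads per library is given. A gene without reads in either compared group could pass the filter through other libraries, and could then be called in a single direction only. In simulated counts of 11552 genes, 100 were changed by 1 and 98 by 2 on the log2 scale. Of these limma recovered 74% and 96.9%, and it called 0.0793% of unchanged genes. Far fewer genes were changed there than the 32.5% called in the data, and whether these rates hold for the data was not tested. Alternatives were edgeR 4.0.16 and DESeq2 1.42.0 on the recovered reads of clone C1 (clone C2 was left out of these, since a size factor near 1 left the check of whole reads undecided in 1 of its libraries), other pseudocounts, no filter, quantile normalization, fewer groups, a replicate block and leaving out each library. The lists and members were chosen with earlier results of these data known. Named are the C/EBP family, the 10 largest rises and falls with groups that did not overlap and a mean of at least 100 reads, up to 4 called members per list by size of change and 2 uncalled by level, and list members a sentence counts or singles out. Promoters came from RefSeq (GRCm38.p6) and gene positions from GENCODE vM21. Figures used Python 3.11.15 and matplotlib 3.10.9.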

Additional observations from a re-analysis of the deposited data

How the results depend on the processing

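Under the alternatives, the number of genes called between dKO-LAP* and WTFL cells ranged from 3133 (1297 higher, 1836 lower) with only these groups in the fit to 4430 with quantile normalization, and edgeR gave 3699 and DESeq2 3637. Asking also for a log2 difference of at least 1 left 1604 genes, 647 higher and 957 lower. Leaving out 1 library at a time gave 3468 to 4191 genes, 1473 to 1839 higher and 1995 to 2352 lower. Whether replicate numbers pair the libraries was left undecided. The correlations of same-numbered deviations were -0.045, 0.297 and 0.077. Replicates 2 and 3 of the dKO-LAP* libraries correlated best with the same number of WTFL, and replicate 1 with replicate 3 (0.141). The replicate block gave 3993 genes, 1744 higher and 2249 lower. Of 379 called genes among the lists and named genes, 297 were called under every alternative and with each library left out, 82 were not called under at least 1, and 0 reversed. The growth and metabolism lists moved most. Ribosome biogenesis genes called higher went from 3 to 13 with quantile normalization, sterol genes from 8 to 4 with edgeR and to 1 with only these groups, and replication genes called lower from 11 to 3 with only these groups. The interferon-stimulated genes called lower stayed between 31 and 35 of 36. Genes at the floor allow only bounds, and with 3 libraries per line and 1 dKO-LAP* line, other clones were not tested. The cause of these changes was not tested.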

Other observations

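Adhesion genes differed in both directions. The tested integrin genes numbered 14, of which the dKO-LAP* cells had 5 above WTFL and 6 below. Itgb7, the chain of gut-homing integrins that mast cell precursors carry, had 13.4, 47.8 and 6.11 reads in WTFL, 348, 520.2 and 679 in dKO and 499.8, 686 and 737 in dKO-LAP* cells (5.21 ± 0.51 from WTFL, adjusted p = 9.3e-07, limma), and Itgax, the CD11c chain, had 1.34, 3.61 and 4.08 reads in WTFL, 45.3, 82.9 and 109 in dKO and 44.7, 83 and 119 in dKO-LAP* cells (4.35 ± 0.50). Itga1, a collagen receptor chain, had 202, 349.9 and 269 reads in WTFL, 60.0, 59.8 and 74.1 in dKO and 52.8, 90.3 and 64.8 in dKO-LAP* cells (-1.97 ± 0.26), and Itga6, a laminin receptor chain, was lower by 1.23 on the log2 scale. In Itgb7 and Itgax every dKO-LAP* library lay above every WTFL library, and in Itga1 and Itga6 below.

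Genes of leukotriene and prostaglandin synthesis were higher in 6 and lower in 3 of 13 tested members. Alox5, which starts leukotriene synthesis, had 119, 221 and 134 reads in WTFL, 1237, 1285 and 1169 in dKO and 851, 932 and 886 in dKO-LAP* cells (2.54 ± 0.21 from WTFL, adjusted p = 1.5e-07, limma), and Ltc4s, which forms leukotriene C4, had 5.35, 15.3 and 11.2 reads in WTFL, 69.1, 76.6 and 72.4 in dKO and 46.7, 57.1 and 59.3 in dKO-LAP* cells (2.35 ± 0.34). Tbxas1, the thromboxane synthase, was the other way, with 727, 737 and 788 reads in WTFL, 504, 576 and 547 in dKO and 402, 414 and 357 in dKO-LAP* cells (-0.94 ± 0.15). Among Fc receptors and their ITAM adaptors 9 of 19 were lower and 1 higher, the latter call lost when any of 4 libraries was left out. The shared signalling chain Fcer1g had 3080.1, 2964 and 3266 reads in WTFL, 2332, 2468 and 2536 in dKO and 1772, 1812 and 1952 in dKO-LAP* cells (-0.75 ± 0.07). Of 16 tested cyclin-dependent kinase inhibitors and D cyclin genes 6 were lower and 1 higher. The latter, Cdkn2a, the INK4A and ARF locus, had 9.37, 11.7 and 11.2 reads in WTFL, 87.2, 75.5 and 61.8 in dKO and 81.3, 83.9 and 71.1 in dKO-LAP* cells (2.76 ± 0.27), while Cdkn2c was lower (-1.40 ± 0.25). Of 16 tested BCL2 family genes 3 were higher and 3 lower, or 3 and 5 without WTFL replicate 3. With all libraries each share was 18.75%, near the 14.2% higher and 18.3% lower of all tested genes. The survival gene Bcl2 had 45.5, 54.1 and 41.8 reads in WTFL, 106, 112 and 83.8 in dKO and 68.1, 104 and 93 in dKO-LAP* cells (0.88 ± 0.17) and Bid was higher by 0.66 ± 0.08, whereas the near-identical Bcl2a1d (-2.27), Bcl2a1b (-1.54) and Bcl2a1a (-0.78) were lower. Of 7 tested genes of the phagocyte oxidase, Cyba (-0.46) and Ncf1 (-0.43) were lower beside Cybb, by far less, Rac2 was higher (0.22, a call lost when any of 4 libraries was left out) and 3 were not called.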
